A study of Mus musculus with 2 samples.

Results

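Cytotoxic and CD8 lymphocytes of the mouse mitral valve were a small set of cells, 50 of the 4313 single cells kept from a WT and an mgR library. Members were chosen by their own transcript counts. A cell was counted among them when its summed UMIs (unique molecular identifiers, 1 per captured RNA molecule) of Nkg7, Cd8a and Cd8b1 reached 3 and those of Cd3e, Cd3d, Cd3g, Ctsw and Ms4a4b reached 2. Cells with 5 or more C1qa, C1qb and C1qc UMIs, the complement genes of macrophages, were left out, as were cells with a UMI of the dendritic cell genes Xcr1, Clec9a or Flt3. Levels of the genes in this rule therefore describe how the cells were chosen, and since related genes move with them, differences from other T cells are given as descriptions without a test.

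The WT library came from wild type littermates. The mgR library came from mice homozygous for the hypomorphic mgR allele of Fbn1, the gene of the extracellular matrix protein fibrillin-1, which makes too little of the protein in every tissue. Mice were 12 weeks of age according to the methods of the study, received no drug, and their valves develop myxomatous degeneration. Viable cells were sorted from enzymatically digested leaflets without selection for a lymphocyte marker, and 1 library was made per genotype. The study names several animals per group, but no label ties a cell to an animal, so there was no replicate against which a difference between genotypes could be tested and no p-value is given. Intervals are exact 95% intervals (Poisson for levels, Clopper-Pearson for shares, conditional binomial for ratios). They cover counting error only.

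Cytotoxic lymphocytes kill infected or altered cells. Their granules carry perforin, which opens the target membrane, and granzymes, serine proteases that enter through it, and Fas ligand triggers death from the cell surface. CD8+ T cells recognize peptides on MHC class I through an alpha-beta T cell receptor coupled to CD3, whereas natural killer cells lack a rearranged receptor and signal through adaptors such as DAP12 (Tyrobp) and the Fc receptor gamma chain (Fcer1g). Nkg7 encodes a membrane protein of the cytotoxic granule.

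The promoters of the granule genes are shown because transcripts of these genes were concentrated in the selected cells: 99.7% of all Gzma UMIs in kept cells, 71.8% of Gzmb, 75.8% of Prf1 and, by the rule, 90.6% of Nkg7. Each run is the 250 bases before the gene start in RefSeq, 5′ to 3′ on the gene's own strand, on GRCm38.p6. The windows were chr13:113100982-113101231 on the minus strand for Gzma (granzyme A), chr14:56262335-56262584 on the minus strand for Gzmb (granzyme B), chr10:61297586-61297835 on the plus strand for Prf1 (perforin) and chr7:43436888-43437137 on the plus strand for Nkg7. Capitals mark the core letters of 2 motif families bound by regulators of cytotoxic lymphocytes, RUNX (TGTGGT, or ACCACA on the other strand) and T-box (TCACAC, or GTGTGA on the other strand).
Gzma: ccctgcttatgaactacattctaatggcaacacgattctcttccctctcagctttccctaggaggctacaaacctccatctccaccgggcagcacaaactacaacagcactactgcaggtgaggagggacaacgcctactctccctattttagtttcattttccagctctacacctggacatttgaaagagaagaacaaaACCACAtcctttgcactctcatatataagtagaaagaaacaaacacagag
Gzmb: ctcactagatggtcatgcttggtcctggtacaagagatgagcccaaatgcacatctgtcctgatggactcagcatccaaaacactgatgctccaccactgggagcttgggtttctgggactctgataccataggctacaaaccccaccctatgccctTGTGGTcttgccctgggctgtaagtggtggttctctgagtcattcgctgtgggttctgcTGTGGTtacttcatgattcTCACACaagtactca
Prf1: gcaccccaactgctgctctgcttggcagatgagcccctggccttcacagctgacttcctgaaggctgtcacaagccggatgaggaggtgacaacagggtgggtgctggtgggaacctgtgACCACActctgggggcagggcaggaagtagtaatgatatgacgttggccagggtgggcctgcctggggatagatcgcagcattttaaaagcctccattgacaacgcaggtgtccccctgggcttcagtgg
Nkg7: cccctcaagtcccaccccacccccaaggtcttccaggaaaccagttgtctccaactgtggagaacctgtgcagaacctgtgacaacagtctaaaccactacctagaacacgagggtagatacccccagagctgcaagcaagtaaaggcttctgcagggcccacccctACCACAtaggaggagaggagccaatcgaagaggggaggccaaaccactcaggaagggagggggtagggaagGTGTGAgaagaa
The Gzma window held a RUNX core whose first base lay 50 bases before the start. The Gzmb window held RUNX cores at 93 and 34 bases and a T-box core at 15 bases. Prf1 held a RUNX core at 130 bases, and Nkg7 held a RUNX core at 83 and a T-box core at 12 bases. No RUNX core overlapped a T-box core. Of 32851 promoter windows of the same length, 14.0% held the RUNX core and 12.3% the T-box core, so either match is common and describes only the letters of the window. Of 16 genes of the rule and of cytotoxic function looked up, 11 had a RefSeq promoter entry, and Cd8b1, Ctsw, Ccl5, Klrd1 and Ccl4 had none.

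Some facts of the 2 libraries bear on what follows. The matrices held 1104 WT and 3802 mgR barcodes with 5381844 and 28215539 UMIs, and 875 and 3438 cells passed the limits of the study (200 to 5000 genes, at most 10% mitochondrial UMIs). Fbn1 itself was detected at 69.2 CPM (UMIs of a gene per 1000000 UMIs, interval 61.8 to 77.3) in WT and 39.1 CPM (36.8 to 41.6) in mgR kept cells, and at 0 UMIs in the selected lymphocytes of both libraries. The selected cells were shallower in WT than in mgR, with a median of 3594.5 UMIs (2126 to 14444) against 6576 (3194 to 21298). The libraries shared 2 barcodes, none among the selected cells, and Scrublet marked none of the selected cells as a doublet, although it marked 0.8% and 1.48% of kept cells. The methods name male mice, yet both libraries held cells with Xist UMIs alone (246 WT and 2091 mgR kept cells) and cells with Y-linked UMIs alone (337 and 724). Among the selected lymphocytes these were 7 and 6 cells in WT and 16 and 9 in mgR. Results that change within these groups are given both ways.

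The lymphocytes were rarer among mgR cells. In WT they were 18 of 875 kept cells, 2.06% (1.22 to 3.23), and in mgR 32 of 3438, 0.931% (0.637 to 1.31). The difference of −1.13 percentage points had an interval of −2.59 to 0.0878, taken from the bounds of the 2 shares, and so reached 0. Among cells with a Ptprc UMI (CD45, the pan-leukocyte phosphatase) they were 17 of 375, 4.53% (2.66 to 7.16), against 30 of 1850, 1.62% (1.10 to 2.31), a difference of −2.91 points (−6.06 to −0.356). Among T cells and selected cells together the shares were close, 18 of 94 or 19.1% (11.8 to 28.6) against 32 of 158 or 20.3% (14.3 to 27.4), with a difference of 1.10 points (−14.3 to 15.6). The order thus depended on the cells taken as the denominator. They were 2.85% of Xist-alone cells in WT and 0.765% in mgR, and 1.78% and 1.24% of the Y-linked-alone cells. In a sorted, digested tissue the share depends also on how many other cells were released, and the part of cell yield in these shares was not tested.

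**Figure D1:**
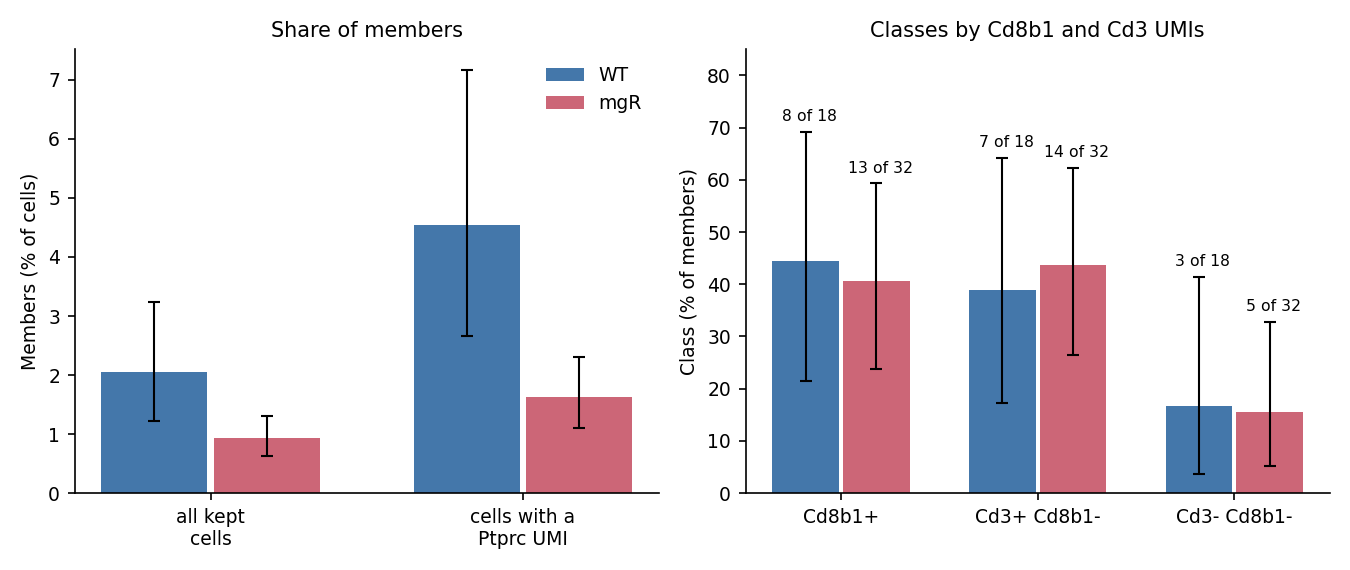
Left, share of cytotoxic and CD8 lymphocytes (percent, bars with 95% Clopper-Pearson intervals) in the WT and mgR libraries among all kept cells (2.06% and 0.931%) and among cells with a Ptprc UMI (4.53% and 1.62%). Right, share of each class of these cells, where Cd8b1+ cells were 44.4% and 40.6%.

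The cells fell into 3 classes by the transcripts they carried. Cd8b1+ cells held the beta chain of the CD8 co-receptor and were 8 of 18 in WT, 44.4% (21.5 to 69.2), and 13 of 32 in mgR, 40.6% (23.7 to 59.4). Cells with a Cd3d, Cd3e or Cd3g UMI but no Cd8b1 UMI (Cd3+ Cd8b1-) were 7, 38.9%, and 14, 43.8%. Cells with neither (Cd3- Cd8b1-) were 3, 16.7%, and 5, 15.6%. The class shares differed between the libraries by less than their counting error. They also depended on depth, since after thinning every cell to 1500 UMIs the counts were 5, 10 and 3 in WT and 9, 18 and 5 in mgR. Nkg7 was found in all 50 cells, from 1 to 13 UMIs per cell in WT (median 4.5) and 1 to 32 in mgR (median 8), and 15 of 18 and 30 of 32 cells qualified by Nkg7 alone. The label was thus carried mainly by Nkg7. Cd8a was seen in 7 and 12 cells and Cd8b1 in 8 and 13. Fasl (Fas ligand), a marker of the set that the rule did not use, was present in 12 of 18 and 19 of 32 cells. At equal depth Fasl remained in 5 of 18, 27.8%, and 1 of 32, 3.1%.

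The Cd3- Cd8b1- class held most Gzma and Prf1 UMIs of the set. Gzma, a tryptase-like granzyme, counted 9, 33 and 103 UMIs in the 3 WT cells and 80, 0, 28, 224 and 106 in the 5 mgR cells, so that 7 of 8 cells expressed it and a single mgR cell did not. These 8 cells held 583 of the 641 Gzma UMIs of the whole set (91.0%) and 21 of its 25 Prf1 UMIs (84.0%). Gzmb, the granzyme that activates caspases, counted 5, 4 and 7 UMIs in WT and 4, 0, 8, 3 and 13 in mgR. The pooled Gzmb level was 909 CPM, against 168 CPM in Cd8b1+ and 436 CPM in Cd3+ Cd8b1- cells, although the latter held more of its UMIs (55 against 44). Fasl did not follow, at 124 CPM in this class against 153 and 151 CPM. Prf1 was at 0 in all 3 WT cells and at 6, 0, 1, 4 and 10 UMIs in mgR. The WT cells were the shallower ones, at 2126 to 3376 UMIs against 3711 to 11445.

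The same 8 cells carried markers of natural killer cells. Tyrobp counted 2, 3 and 9 UMIs in WT and 9, 9, 10, 21 and 43 in mgR, and Fcer1g 5, 3 and 6 against 10, 9, 15, 24 and 21, so both adaptors were present in every cell. At least 2 Tyrobp and Fcer1g UMIs were found in 8 of 8 of these cells, in 7 of 21 Cd3+ Cd8b1- cells and in 0 of 21 Cd8b1+ cells. All 12 Ncr1 UMIs of the set (NKp46, an activating receptor) and all 43 UMIs of Klra4 (a Ly49 receptor, of a family of similar genes among which reads can be misassigned) lay in them. They also held 74 of 81 UMIs of Irf8, an interferon regulatory factor (91.4%). Trac, Trbc2, Il7r, Cd8a and Cd8b1 were at 0 in all 8 cells, while Trbc1, a constant segment of the beta chain, gave UMIs in 5 of 8. Their pooled level of Gzma was 12041 CPM, against 117 CPM in Cd8b1+ and 333 CPM in Cd3+ Cd8b1- cells. Klrd1 (CD94, the shared partner of NKG2 receptors) stood at 764, 255 and 254 CPM in the same order, and Ccl5, the chemokine RANTES, at 17432, 6026 and 4291 CPM. Not every natural killer receptor gene was highest in the 8 cells. In the same order Klra9 stood at 165, 0 and 167 CPM, Klrc1 at 62.0, 94.7 and 31.7 CPM and Cd226 at 20.7, 58.3 and 87.2 CPM. Of the 23 Klrb1c UMIs 12 lay in the 8 cells and 11 in Cd3+ Cd8b1- cells, and of the 36 Klra7 UMIs 22 and 14. The classes were cut by Cd3 and Cd8b1 transcripts of the same cells, so these levels are descriptions.

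The Cd8b1+ cells carried alpha-beta receptor transcripts and more chemokine than granzyme UMIs. Trac or Trbc2 UMIs were found in 21 of 21, no Cd4 UMI in any, and no cell held 2 gamma-delta constant-region UMIs. Ccl5 ranged from 17 to 68 UMIs per cell in WT (median 45) and from 0 to 97 in mgR (median 33). The 2 ranges overlapped, and the mgR cells reached both lower and higher than the WT cells. Gzmb was found in 0 of 8 WT and 6 of 13 mgR cells, with at most 11 UMIs in a cell, and Gzma in 0 of 8 and 3 of 13. The mgR Cd8b1+ cells were deeper, with a median of 7012 UMIs against 4009, and the part of depth in these counts was not tested. Gzmk, a granzyme typical of memory CD8+ T cells, gave 20 of its 21 UMIs in this class. Ccr7, the lymph node homing receptor of naive and circulating memory T cells, gave UMIs in 2 of 8 and 7 of 13 cells. The mgR Cd8b1+ cell with 15 Dapl1 UMIs also held 11 Il7r UMIs and only 6 of Ccl5, and the mgR cell with no Ccl5 UMI held 5 of Ccr7 and 7 of Satb1.

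The Cd3+ Cd8b1- class was mixed. Trac, Trbc1 or Trbc2 UMIs were found in 19 of 21 cells. Ccl5 had a median of 36 UMIs in the 7 WT cells and of 1 in the 14 mgR cells, and no Ccl5 UMI in 1 and 7 of them. Those 8 cells without Ccl5 also lacked Cd8a, and 7 of them (1 WT and 6 mgR) held at least 2 UMIs of Icos (an inducible co-stimulator) and Rora (a nuclear receptor of innate-like and helper lymphocytes). In mgR these cells held up to 27 Il7r UMIs, the receptor subunit for interleukin 7. A WT cell without Ccl5 carried 27 of the 28 WT Trdc UMIs (the constant region of the delta chain), and at least 2 gamma-delta constant UMIs were found in 1 of 7 and 3 of 14 cells. Cd4 was seen in 2 mgR cells. At the other end, a WT cell held 39 of the 59 WT Gzmb UMIs with 18 of Gzma and 67 of Ccl5. Of all 50 cells, 1 of 18 and 6 of 32 carried no UMI of Ccl5, a granzyme, Prf1 or Fasl, and 8 of 18 and 16 of 32 carried a granzyme or Prf1 UMI. The set therefore held cells with Nkg7 but without the other transcripts of killing.

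**Figure D2:**
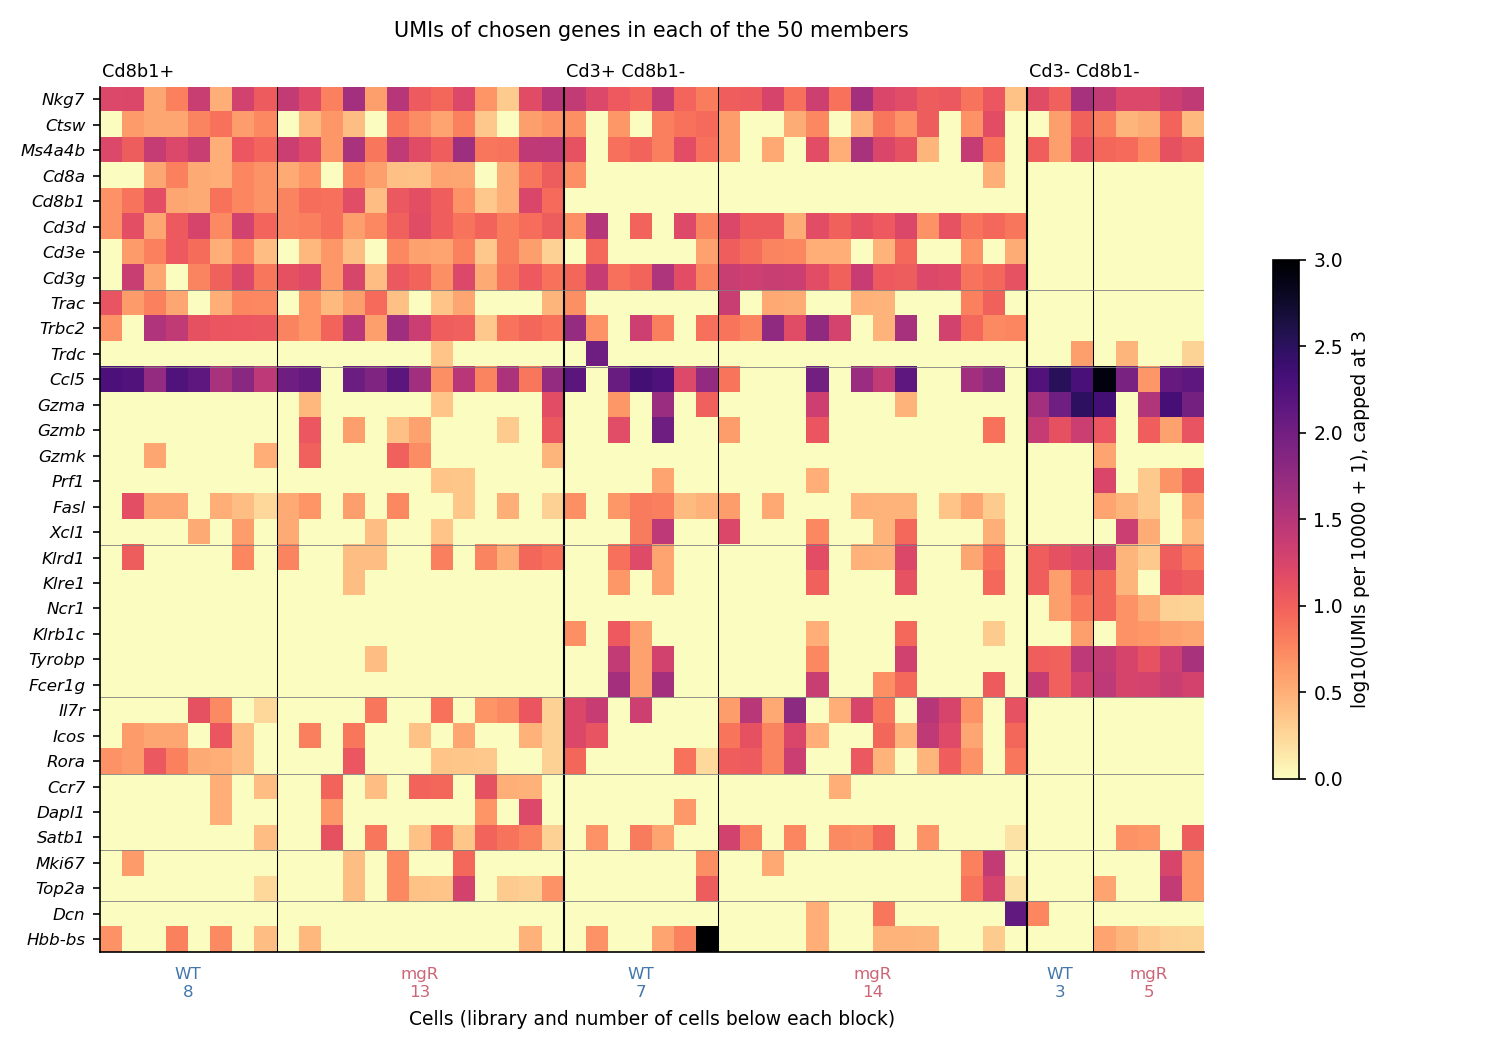
UMIs per 10000 of 34 genes (rows) in each of the 50 cells (columns), as log10 of the value plus 1, capped at 3. Columns are blocked by class and library, and Gzma, Tyrobp and Fcer1g are dense in the 8 Cd3- Cd8b1- cells.

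Transcripts of other cell types sat mostly in single members. A WT Cd3+ Cd8b1- cell of 14444 UMIs held 5321 of the 5340 haemoglobin UMIs of the WT cells, together with 81 Ccl5, 6 Mki67 and 14 Top2a UMIs. An mgR Cd3+ Cd8b1- cell of 21298 UMIs held 277 of 281 Dcn UMIs (decorin, a fibroblast proteoglycan), with 25 Il7r and 17 Icos UMIs and no Ccl5. Another mgR cell held 6 Cd79a and 8 Ighm UMIs, genes of B cells. Summed levels of the fixed marker lists were 11.6 CPM in WT and 1783 CPM in mgR for fibroblasts, 92.6 and 484 for macrophages, 116 and 555 for dendritic cells, and 11.6 and 209 for B cells. The decorin-rich mgR cell held 395 of the 402 mgR fibroblast UMIs. It also held 89 of the 109 mgR macrophage UMIs, all of Apoe, and Csf1r, Adgre1 and Fcgr1 were at 0 in all selected cells. Of the 125 mgR dendritic cell UMIs, 1 cell held 68. Ccr7, which is also a gene of naive and circulating memory T cells, gave 33 of the 125. Melanocyte markers were at 0 in both libraries and neutrophil markers at 0 in WT. The results were also computed without the haemoglobin and decorin cells and with haemoglobin left out of the totals.

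Just outside the rule the cells differed most in WT. With a summed Nkg7, Cd8a and Cd8b1 count of 3, the lowest that qualifies, 4 WT cells held 255 Ccl5 UMIs and 4 mgR cells held 2. With a count of 2, 3 WT and 6 mgR T cells held 5 and 8 Ccl5 UMIs. The rule's lower edge thus lay at a drop in Ccl5 in WT but not in mgR. No cell was left out for a dendritic cell gene alone. The C1q limit removed 1 mgR cell with 11 C1q UMIs and 164 Ccl5 UMIs, while 7 mgR cells with 1 to 4 C1q UMIs stayed in.

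Against the other T cells of the same libraries (76 WT and 126 mgR, of which 65 and 72 held gamma-delta receptor UMIs), the selected cells stood out in chemokine and granule genes. Of 451 genes with enough UMIs, 34 (7.54%) were at least 2-fold higher in both libraries and 11 (2.44%) at least 2-fold lower, in a contrast that the rule itself had used. Ccl5 was at 9924 CPM against 15.3 CPM in WT, 648-fold higher (277 to 2002), and at 6012 against 8.28 CPM in mgR, 726-fold higher (333 to 1981). Gzma was at 2050 and 2059 CPM and at 0 in other T cells of both libraries, at least 223-fold and at least 497-fold higher against a floor of 3 counts per library. Gzmb was at least 74.4-fold higher in WT, and 67.5-fold higher in mgR against the same floor. In mgR other T cells held 1 UMI, which made a measured ratio of 202 (35.0 to 8123). These are pooled levels, since most selected cells held neither granzyme: Gzma was in 6 of 18 and 9 of 32 cells, and Gzmb in 5 of 18 and 13 of 32.

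Klrd1 was 31.5-fold higher in WT (9.62 to 163) and 84.6-fold in mgR (27.9 to 419). The other genes that led this order were Ccl4 (MIP-1 beta), Gramd3, Fcer1g, Dusp2 (a phosphatase induced by activation), Ly6c2 (a surface antigen of memory CD8+ T cells), Tyrobp, Serpinb6b (a serpin that guards against granule proteases) and Hist1h1b, a linker histone of dividing cells. From Ccl4 to Serpinb6b the ratios ran from 7.29 to 25.5 in the 2 libraries. Hist1h1b stood at 113 in WT (30.1 to 958), or 75.6 against the floor of 3 counts, and at 5.56 in mgR. Its 60 WT UMIs lay in 3 cells, and the other T cells of WT held 2 UMIs. Most WT comparison cells were gamma-delta cells. Against the 11 WT T cells outside that group, Tyrobp stood at 336 against 240 CPM and Ly6c2 at 324 against 221 CPM. Fcer1g stood at 486 against 221 CPM and Gramd3 at 324 against 129 CPM. In mgR these genes stood at 293 to 466 CPM against 59.5 to 70.0 CPM in the 54 such cells. Ccl4 and Serpinb6b were at 0 in those WT cells, and Dusp2 at 36.9 CPM. Several of these transcripts were not confined to the selected cells, which held 28.1% of all Ccl5 UMIs of kept cells, 16.5% of those of Klrd1, 0.39% of Tyrobp and 0.087% of Ccl4.

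Il7r led the genes that were lower. It was at 290 CPM against 2223 CPM in WT (ratio 0.130, 0.0837 to 0.194) and at 612 against 1812 CPM in mgR (0.338, 0.281 to 0.403). Ltb (lymphotoxin beta), Samsn1, Emb (embigin), Ppp1cc, Pim1 (a serine kinase downstream of cytokine receptors), S100a4, S100a6, Gpx1, Pdcd1 (PD-1), Ly6e and Crem followed, with ratios from 0.253 to 0.525. Against the T cells outside the gamma-delta group, Pdcd1 stood at 266 against 332 CPM in WT and at 115 against 101 CPM in mgR. The other genes named here stayed lower in the selected cells of both libraries. S100a4 (1459 and 1340 CPM) and S100a6 (1702 and 1930 CPM) were still among the more abundant of these transcripts in the selected cells.

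**Figure D3:**
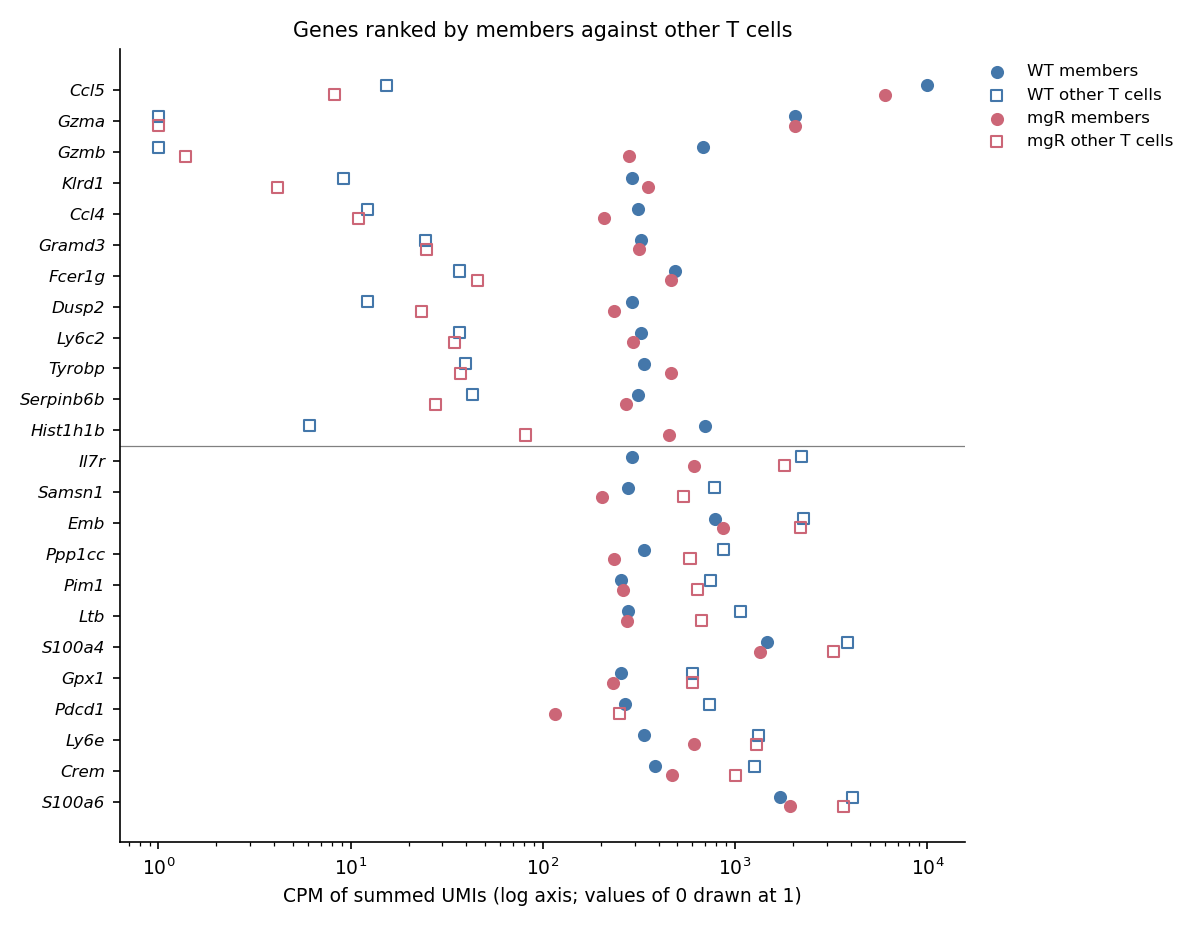
Level in CPM (log axis) of the 24 genes named against other T cells, in WT and mgR. Filled circles are the selected lymphocytes, open squares the other T cells, and a level of 0 is drawn at 1; Gzma stands at 0 in other T cells of both libraries.

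Between genotypes, 2235 genes had at least 20 UMIs in the selected cells. Of these, 246 (11.0%) were at least 2-fold higher in mgR and 92 (4.12%) at least 2-fold lower, against a median log2 ratio of 0.02 over all 2235. In mgR 1156 were higher and 1079 lower, and the intervals of 197 lay above 1 and of 104 below. The counts of each list below stand beside these. The counts past 2-fold depended on depth and on the UMI limit. At 1500 UMIs per cell they were 42 and 27, and at a limit of 10 UMIs in place of 20 they were 298 and 290. With 18 and 32 cells a ratio can rest on a few of them, so the number of cells is given with it.

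Among effector genes, Ccl5 was lower in mgR and Gzma was level. Ccl5 (chromosome 11, 83525778 to 83530518, GRCm38) was found in 17 of 18 WT cells with 0 to 111 UMIs (median 45) and in 24 of 32 mgR cells with 0 to 300 UMIs (median 26.5), which made 9924 CPM against 6012 CPM, a ratio of 0.606 (0.556 to 0.661). The per-cell ranges overlapped. Among cells with 5 or more Nkg7, Cd8a and Cd8b1 UMIs the levels were 8367 and 7506 CPM, while the 4 cells per library at the lowest qualifying count of 3 stood at 21621 and 60.1 CPM. At equal depth of 1500 UMIs, Ccl5 remained in 17 of 18 WT cells, 94.4% (72.7 to 99.9), and in 20 of 32 mgR cells, 62.5% (43.7 to 78.9), whereas cells with fibroblast markers, at median depths of 5183 and 6484 UMIs, showed it in 0.58% and 0.72%. Gzma was at 2050 and 2059 CPM, a ratio of 1.0 (0.843 to 1.2), with 3 cells holding 87.0% and 88.4% of its UMIs. Gzmb was lower in mgR by pooled level, 683 against 280 CPM (0.409, 0.282 to 0.594), but 39 of the 59 WT UMIs came from a single cell and the share of cells with it was 5 of 18 against 13 of 32. Among Cd8b1+ cells and among Xist-alone cells Gzmb was higher in mgR (log2 ratios 4.37 and 1.0). The value of 4.37 sets 0 WT UMIs against 23 in mgR, so its size depends on the count of 0.5 added to each. Prf1 counted 1 UMI in WT and 24 in 7 cells of mgR, a ratio of 9.19 (1.50 to 378). Fasl was at 220 and 120 CPM (0.544, 0.292 to 1.04), an interval that reached 1. Nkg7 was at 1204 and 1429 CPM (1.19, 0.948 to 1.49).

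The list of granule and death ligand genes did not move in a single direction. Of 10 measured members 5 were higher and 5 lower in mgR, with 2 and 1 past 2-fold (median log2 ratio −0.10, and −1.04 without the 7 cycling cells). Past 2-fold were 246 and 92 of all 2235 genes. Gzmc counted 12 UMIs in WT and 0 in mgR, which is below the 20 UMIs required of measured genes.

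Some genes of naive and circulating memory T cells were higher in the mgR cells. Of 8 measured of 12 listed, 5 were higher, all of them past 2-fold, and 3 lower (median log2 ratio 1.01). The intervals of 3 of them, Satb1, Ccr7 and Il7r, lay above 1, and none lay below. Of all 2235 genes 1156 were higher, 246 past 2-fold, and 197 had an interval above 1. Satb1, a chromatin organizer of naive T cells (chromosome 17, 51736187 to 51833290), was found in 4 of 18 WT cells with at most 2 UMIs and in 20 of 32 mgR cells with at most 11. Its level was 69.5 against 328 CPM (4.73, 2.07 to 13.3), and at equal depth it remained in 11.1% and 40.6% of cells. Ccr7, the lymph node homing receptor, counted 3 UMIs in 2 WT cells and 33 UMIs in 8 mgR cells (4.21, 1.32 to 21.5). The top 3 mgR cells held 66.7% of its UMIs, and among Xist-alone cells its direction turned (log2 ratio −0.54). Il7r counted 25 UMIs in 6 WT cells and 138 in 17 mgR cells, 290 against 612 CPM (2.11, 1.37 to 3.38), of which the Cd3+ Cd8b1- class held 17 and 110. Klf2, which drives exit from tissue, was at 92.6 and 191 CPM (2.06, 0.957 to 5.07) and Dapl1 at 34.7 and 88.7 CPM (2.55, 0.757 to 13.4), both with intervals that reached 1. Tcf7, S1pr1 and Foxp1 had ratios of 0.607, 0.985 and 0.744.

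Of 10 interferon-stimulated genes measured of 19 listed, 9 were higher in mgR, 5 past 2-fold, and 1 lower (median log2 ratio 0.90). The intervals of 4 lay above 1 and of none below. Of all 2235 genes 1156 were higher, 246 past 2-fold, and intervals lay above 1 for 197 and below for 104. The rise was not particular to the selected cells. Summed over the list, they stood at 1471 CPM in WT and 2467 CPM in mgR, and other T cells at 986 and 1959 CPM. A single mgR Cd3+ Cd8b1- cell held 110 of the 556 mgR UMIs. By class the levels were 1600 and 1971 CPM in Cd8b1+, 1401 and 3463 CPM in Cd3+ Cd8b1- and 1138 and 1388 CPM in Cd3- Cd8b1- cells. Ly6a (Sca-1) was at 34.7 and 142 CPM (4.09, 1.28 to 20.9), Bst2 (tetherin) at 139 and 306 CPM (2.20, 1.18 to 4.47) and Psmb8, an immunoproteasome subunit found in 14 of 18 and 29 of 32 cells, at 394 and 674 CPM (1.71, 1.17 to 2.56). Isg15, a ubiquitin-like modifier, was at 127 and 275 CPM (2.16, 1.13 to 4.55), but 3 mgR cells held 80.6% of its UMIs and within Cd8b1+ cells it was lower in mgR (log2 ratio −0.64). Isg20 was the exception at 0.501 (0.229 to 1.12).

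Several immediate early genes, which the digestion of tissue itself can induce, were higher in the mgR cells. In the dissociation stress list 9 of 12 measured genes were higher, 5 past 2-fold, and 3 lower (median log2 ratio 0.55). The intervals of 5 genes lay above 1 and of 1 below. Of all 2235 genes 1156 were higher, 246 past 2-fold, and intervals lay above 1 for 197 and below for 104. Fos counted 1 UMI in 1 WT cell and 39 in 14 mgR cells (14.9, 2.53 to 605), and at equal depth was in 0 of the WT cells and in 18.8% of the mgR cells, far fewer than the 43.9% and 49.4% of fibroblast-marker cells. Jund was at 510 and 1060 CPM (2.08, 1.50 to 2.94) and found in 14 of 18 and 32 of 32 cells. Junb stood at 1459 and 1996 CPM (1.37, 1.12 to 1.68). Hsp90aa1, a chaperone, went the other way at 787 and 510 CPM (0.648, 0.476 to 0.888). Summed over the list, the selected cells stood at 4262 CPM in WT and 5683 CPM in mgR. Other T cells stood at 7100 and 7325 CPM and the rest of the kept cells at 10834 and 10471 CPM. Among the Y-linked-alone cells, the median of this list was −0.19, and Junb and Jund were lower in mgR, so the direction of the list was not shared by both sex-linked groups of cells. The part of dissociation in these differences was not tested.

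**Figure D4:**
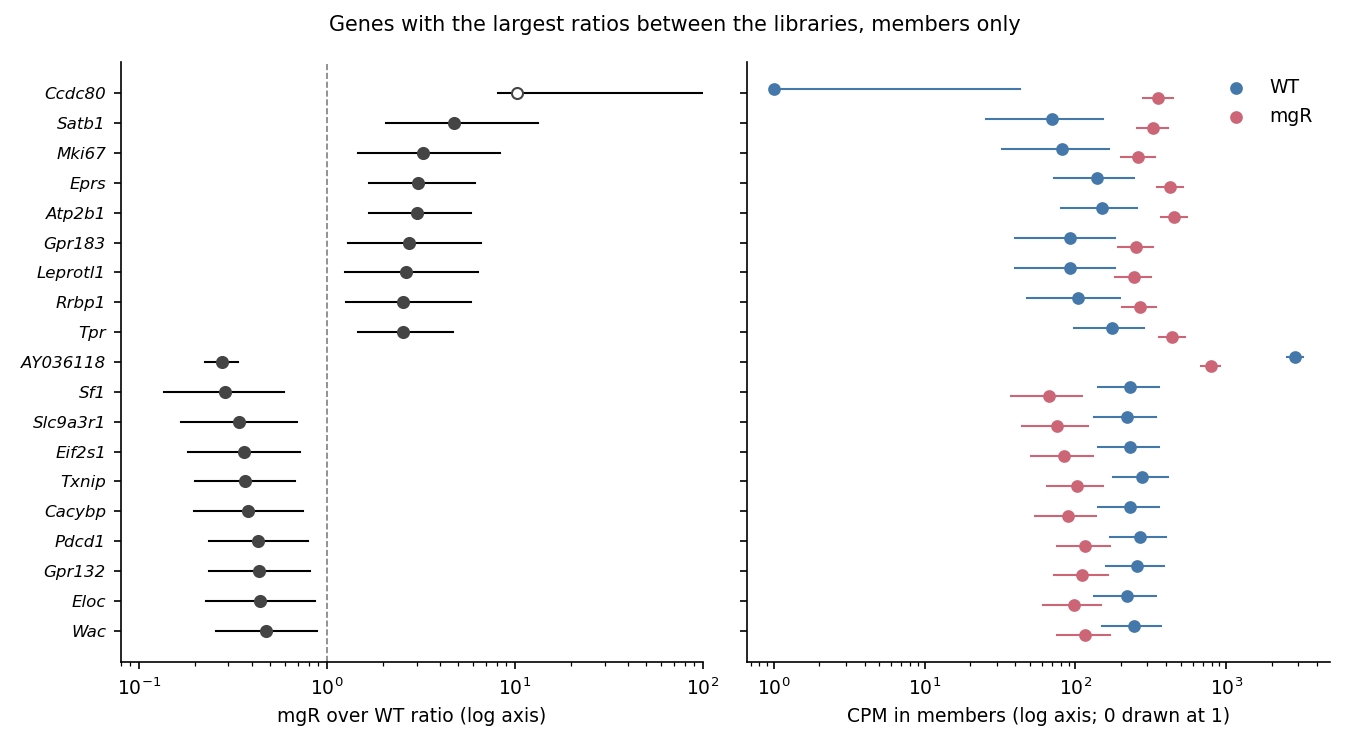
Left, ratio of mgR to WT level with 95% intervals for named genes (log axis; open circles are bounds against a floor of 3 counts). Right, the levels in CPM with Poisson intervals, 0 drawn at 1. AY036118 lies at 0.276 and Satb1 at 4.73.

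Of 16 T cell receptor and signalling genes, 10 were lower in mgR and 6 higher, 2 and 1 past 2-fold (median log2 ratio −0.32), beside 1079 lower and 1156 higher of all 2235 genes. The intervals of 2 genes lay below 1, those of Ptpn22 and Cd6. Ptpn22, a phosphatase that restrains receptor signals, was found in 17 of 18 and 27 of 32 cells at 544 and 337 CPM (0.620, 0.425 to 0.911). Cd6, a co-receptor, was at 185 and 75.4 CPM (0.407, 0.193 to 0.861). The receptor chains themselves differed little, with ratios of 1.06 for Trbc1 and 1.02 for Trbc2 and 0.830 for Trac. Natural killer receptor genes split 8 to 4 (median 0.19, but −0.80 without the 7 cycling cells), with Klre1 at 2.16 (1.01 to 5.29) and Klrc1 at 0.255 (0.0906 to 0.679). Directions of Klre1 and Klrc1 turned when cells were thinned to equal depth, and reads of Klrc1 and Klrc2 can be shared.

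Homing receptors split 6 to 8 (median −0.10). Ccr2, the receptor that draws cells to CCL2, counted 2 UMIs in 1 WT cell and 41 in 17 of 32 mgR cells (7.85, 2.04 to 67.0). The integrin chains Itgb1, at 683 and 386 CPM (0.565, 0.401 to 0.800), and Itgb2, at 255 and 133 CPM (0.522, 0.291 to 0.95), were lower in mgR. Cxcr4 was at 208 and 102 CPM (0.490, 0.253 to 0.963) and turned direction at equal depth. Tissue residence genes split 4 to 3 with none past 2-fold and a median of 0.00 (−1.10 among Cd8b1+ cells and 1.07 among Xist-alone cells), and only Rgs1, a brake on chemokine receptors, had an interval clear of 1, at 984 and 586 CPM (0.595, 0.450 to 0.791). Cytokine receptor genes split 4 to 5 (median −0.08). The mTOR and glycolysis list split 6 to 5 with a median of 0.03, and Tpi1, a glycolytic enzyme, was its only member past 2-fold (3.58, 1.10 to 18.4).

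Cycling genes were carried by few cells. Of 13 measured genes 8 were higher in mgR, 3 of them past 2-fold, and 5 lower, 1 past 2-fold (median log2 ratio 0.50). Of all 2235 genes 1156 were higher, 246 past 2-fold, and 1079 lower, 92 past 2-fold. The list median was 1.35 without the haemoglobin and decorin cells, 1.10 at equal depth over the 3 genes left, and 2.27 among the Y-linked-alone cells. Summed over the list, the selected cells stood at 4412 CPM in WT and 6504 CPM in mgR. Other T cells also rose, from 2189 to 3783 CPM. At least 5 Mki67 and Top2a UMIs were found in 1 of 18 WT cells, the cell with haemoglobin, and in 6 of 32 mgR cells, 18.8% (7.21 to 36.4), 2 in each class. Mki67 was at 81.1 and 262 CPM (3.23, 1.47 to 8.38) and Top2a at 174 and 350 CPM (2.02, 1.15 to 3.77). Hmgb2, a chromatin protein of dividing cells, was at 915 and 1819 CPM (1.99, 1.56 to 2.56). Ikzf2 (Helios) was at 0 UMIs in WT, which allows up to 3, and at 25 UMIs in 9 mgR cells, at least 3.19-fold higher. Pdcd1, the exhaustion and activation receptor PD-1, was lower at 266 against 115 CPM (0.433, 0.238 to 0.794) and had 23 and 26 UMIs in 8 and 11 cells. It was also lower in other T cells of mgR (732 and 251 CPM) and in the rest of the kept cells (54.8 and 8.20 CPM).

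**Figure D5:**
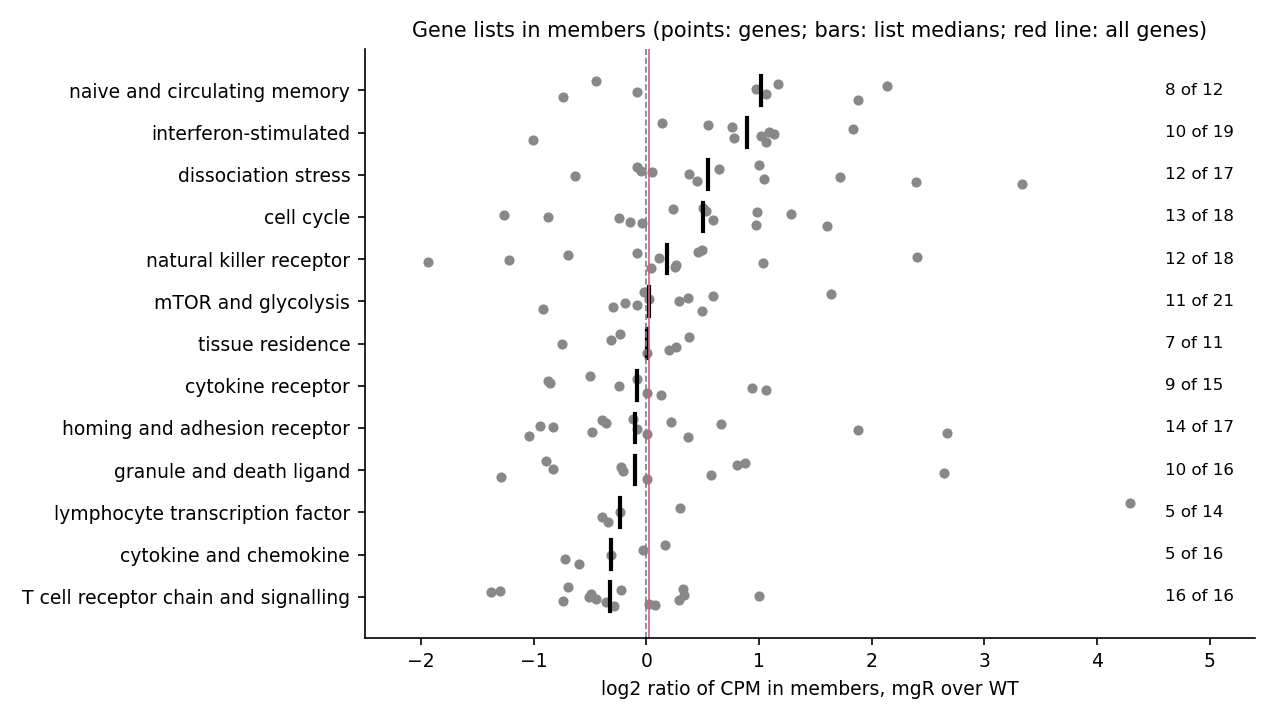
Log2 ratio of mgR to WT level for the measured genes of each list (points), with list medians (bars) and the median of all 2235 genes (red line, 0.02). Numbers give genes with at least 20 UMIs of those listed; the medians of naive and circulating memory and of interferon-stimulated genes are the highest, at 1.01 and 0.90.

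By size of ratio alone, among genes at 200 CPM or more in either library, the genes that led on the mgR side included Ccdc80, Satb1, Mki67, Eprs, Atp2b1, Gpr183, Leprotl1, Rrbp1 and Tpr. Ccdc80, a matrix protein gene, counted 0 UMIs in WT and 80 in mgR, at least 10.2-fold higher, but 77 UMIs lay in the cell rich in decorin. The remaining ratios were 2.53 to 4.73. Eprs, a glutamyl-prolyl tRNA synthetase, was found in 8 of 18 and 28 of 32 cells at 139 and 426 CPM (3.06, 1.68 to 6.14). Atp2b1, a calcium pump of the plasma membrane, was in 8 and 29 cells at 150 and 452 CPM (3.01, 1.68 to 5.84). Gpr183, an oxysterol receptor that guides lymphocytes, was in 5 and 19 cells at 92.6 and 253 CPM (2.73, 1.30 to 6.63), and it overlaps Ubac2 on the other strand. Tpr overlaps Odr4 and Prg4 and Mki67 overlaps Gm45240 on the other strand.

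On the WT side stood AY036118, Sf1, Slc9a3r1, Eif2s1, Txnip, Cacybp, Pdcd1, Gpr132, Eloc and Wac, with ratios of 0.276 to 0.474. AY036118, a lincRNA that overlaps CT010467.1 on the same strand and Gm42418 on the other, was at 2860 and 790 CPM (0.276, 0.226 to 0.336). It was also lower in other T cells of mgR (3653 and 809 CPM) and in the rest of the kept cells (3218 and 665 CPM). Sf1, a splicing factor, was found in 11 of 18 and 13 of 32 cells at 232 and 66.6 CPM (0.287, 0.137 to 0.590), and Txnip, an inhibitor of glucose uptake, in 10 and 15 cells at 278 and 102 CPM (0.367, 0.198 to 0.679). Of 80 ribosomal protein genes measured, 53 were higher and 27 lower in mgR (median log2 ratio 0.15), beside 1156 and 1079 of all 2235 genes.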

How the data were processed

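Mitral valve cells of 1 WT and 1 mgR library (10x Genomics 3' v3) were used. The deposited matrices held counts: UMIs per gene and barcode, made by the authors with Cell Ranger 7.1.0 on build mm10 per the labels. Introns may or may not have been counted, which is not given in the sources used here. Barcodes with 200 to 5000 genes and at most 10% mitochondrial UMIs were kept. UMIs were summed over the selected cells of each library and divided by their total (CPM). Genes with at least 20 UMIs over both libraries were compared, and at least 2-fold was the limit of size. With 1 library per genotype, no test was run. Other T cells were the T cells that did not meet the rule. To compare shares across depths, each cell was thinned to 1500 UMIs. Doublets were looked for with Scrublet in scanpy 1.11.5 and none was removed. Named genes were the 10 with the largest ratios in each direction at 200 CPM or more in either library, in at least 10% of members, at 50% or more of the level in other kept cells, and with the same direction per cell and without the top cell, plus genes of the rule and of the lists, and the 12 with the largest ratios in each direction against other T cells. A gene that this rule named is not reported here. The cells and lists were chosen with earlier results of these data known. Of 32285 features, 32158 had a GENCODE vM21 position. Promoters came from RefSeq and were the part of each entry before the start. Scripts were tested on simulated data. Python 3.11.15, numpy 2.4.6, scipy 1.17.1, pandas 2.3.3 and matplotlib 3.10.9 were used.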

Additional observations from a re-analysis of the deposited data

Results flagged for a closer look

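The genes named between genotypes and those of the lists other than the marker lists were searched, not all genes. Each needed at least 20 UMIs in the selected lymphocytes, which 145 genes had, and at least 20 in the other T cells. In 7 of these genes the mgR to WT ratio went in opposite directions in the 2 populations, with both intervals clear of 1. No share over all genes was computed, so whether 7 is more than usual was not tested. With 1 library per genotype the difference between the 2 populations was not tested. Cd6, the co-receptor, had a ratio of 0.407 in the selected cells and 3.76 in other T cells, where it was rare (9.19 and 34.5 CPM). Ptpn22, the phosphatase, stood at 0.620 and 1.40. Hsp90aa1, the chaperone, stood at 0.648 and 1.52. Il7r went the other way, at 2.11 in the selected cells and 0.815 in other T cells, as did the tRNA synthetase gene Eprs at 3.06 and 0.803. Gpr183, the oxysterol receptor, stood at 2.73 and 0.668, and Junb at 1.37 and 0.834. The other T cells differed in make-up, with 65 of 76 gamma-delta cells in WT and 72 of 126 in mgR. Gpr183 was at 554 and 351 CPM in the gamma-delta cells. In the remaining other T cells it was at 240 and 311 CPM, higher in mgR as in the selected cells. Il7r (1937 and 1491 CPM) and Eprs (922 and 833 CPM) were lower in mgR there. The part of make-up in these ratios was not tested. In WT, Eprs and Gpr183 were lower in the selected cells (139 and 92.6 CPM) than in other T cells (1133 and 502 CPM), and in mgR the levels were 426 and 253 against 910 and 335 CPM.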

How the results depend on the processing

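No paired analysis was possible because each genotype had 1 library, and for the same reason no replicate could be left out. Settings that leave out cycling, haemoglobin or decorin-rich cells, or that drop haemoglobin from the total, were chosen after seeing the data. Of 145 single gene ratios under their alternatives, 1516 of 1683 values stayed within counting error of the reported ratio and 152 moved. The other 15 turned direction for genes whose reported interval was clear of 1. Whatever the interval, 1465 of the 1683 values kept the direction of the reported ratio. Of list medians 128 of 143 stayed within the interval of the reported median and 15 moved, and 113 of the 143 kept its direction. The main limits are 18 WT cells, their lower depth and the sex-linked mixture, and the cause of each change was not tested. The difference in share was −2.91 points over Ptprc+ cells and 1.10 over T cells. The 246 genes higher in mgR became 42 at 1500 UMIs per cell, 59 at a limit of 50 UMIs, 66 in Cd8b1+ cells, 73 in Y-linked-alone cells and 148 without cycling cells. The 92 lower became 27 at 1500 UMIs, 290 at a limit of 10 UMIs, 8 at 50 UMIs, 59 with at least 5 Nkg7, Cd8a and Cd8b1 UMIs, 51 in Cd8b1+ cells, 41 in Xist-alone cells and 39 in Y-linked-alone cells. Against other T cells, 6 in place of 11 genes were lower at 5 such UMIs. At 1500 UMIs the medians were 1.36 for interferon-stimulated and 1.10 for cell cycle genes, and log2 ratios were −0.14 for Klre1, 0.31 for Klrc1 and 0.087 for Cxcr4. With at least 5 Nkg7, Cd8a and Cd8b1 UMIs the natural killer receptor median was 0.96. In Cd8b1+ cells the tissue residence median was −1.10 and log2 ratios were 4.37 for Gzmb (0 UMIs in WT), −0.64 for Isg15 and −0.30 for Junb. In Xist-alone cells the medians were 1.01 for natural killer receptors and 1.07 for tissue residence, and log2 ratios were 1.0 for Gzmb and −0.54 for Ccr7. Among Y-linked-alone cells medians were −0.84 for T cell receptor and signalling, 2.17 for naive and circulating memory, 1.58 for interferon-stimulated, −0.19 for dissociation stress and 2.27 for cell cycle genes. Log2 ratios there were −0.092 for Klre1, 1.06 for Cxcr4, −0.19 for Junb, −0.29 for Jund and −0.10 for Nfkbia. Without the haemoglobin and decorin cells the cell cycle median was 1.35. Without cycling cells the medians were −1.04 for granule, −0.80 for natural killer receptor and 1.21 for interferon-stimulated genes, and log2 ratios were −0.39 for Klre1 and −0.88 for Stmn1.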

Other observations

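Regulators of the lineage were sparse but present in both libraries. Tbx21, the T-box factor T-bet, counted 5 UMIs in WT and 13 in mgR cells, and Eomes, its paralog, counted 8 and 17. Runx3, which maintains the CD8 lineage, counted 24 and 54 UMIs. Foxp3, the factor of regulatory T cells, was at 0 in both libraries. Among cytokines, Ifng (interferon gamma) counted 3 and 15 UMIs, Xcl1, the lymphotactin that attracts cross-presenting dendritic cells, 15 and 32, and Areg (amphiregulin, a repair factor) 0 and 14. Interleukin 18 receptor transcripts of Il18r1 counted 5 and 27 UMIs and those of Il18rap 0 and 12. Summed markers of helper T cells stood at 197 CPM in WT and 395 CPM in mgR, and those of type 2 innate lymphoid cells at 266 and 359 CPM. Single genes carried both sums. Over both libraries the helper list held 95 Icos, 7 Cd40lg, 4 Cd4 and 0 Foxp3 UMIs. The type 2 list held 77 Rora, 14 Areg, 12 Gata3, 1 Il1rl1 and 0 Il5 UMIs. Icos and Rora were also found in 11 and 12 of 21 Cd8b1+ cells, so the sums do not identify these cell types.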
